A study of Mus musculus with 15 samples.

Results

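The mRNAs of 77 nuclear genes whose symbol opens with Mrpl or Mrps and goes on with a number were followed, out of 21727 transcripts in the table of counts. They encode the proteins of the mitochondrial ribosome. The rule that defines them uses the symbol and no measured value. By the usual assignment of their products, 50 belong to the 39S large subunit, *Mrps18a* and *Mrps30* among them, and 26 to the 28S small subunit. The product of *Mrps36* is known as a subunit of the oxoglutarate dehydrogenase complex instead. Of the mitoribosome proteins, 48 have a bacterial counterpart and 28 are specific to mitochondria. All 77 transcripts passed the filter on low counts, which asked for a CPM (count scaled to a common library size) over 2 in at least 14 of 15 libraries and left 10085 transcripts.

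Ribosome-protected fragments (RPFs) had been sequenced from E14Tg2a.4 mouse embryonic stem cells (mESCs), a line grown in serum and leukemia inhibitory factor on gelatin. WT cells carried neither tag. In the *Rps27-FLAG* line (eS27-FLAG in the labels) a 3xFLAG epitope had been placed before the stop codon of both alleles of *Rps27*, and in the *Rps27l-FLAG* line (eS27L-FLAG) of both alleles of *Rps27l*. *Rps27* and Rps27l are paralogous proteins of the small subunit of the cytosolic ribosome. Each line was sampled as 3 clones, so that replicates differ in clone as well as in culture. By the study's methods, the barcoded RPFs of each replicate were pooled before rRNA depletion and carried through library preparation as a pool. Total RPFs came from all 9 clones, and RPFs of ribosomes immunoprecipitated with anti-FLAG beads (IP RPFs) from the 6 tagged clones. All cells had been treated with cycloheximide before lysis, and no IP library of WT cells was analysed here. The comparisons asked whether tagging moved the footprints of these mRNAs and whether Rps27- and Rps27l-ribosomes carried them differently.

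The mitoribosome makes the mitochondrially encoded subunits of the respiratory chain and ATP synthase. Its RNAs come from the mitochondrial genome, whereas its proteins are translated from nuclear mRNAs on cytosolic ribosomes and imported. The complex has lost RNA relative to the bacterial ribosome and gained proteins that bacteria lack. Footprints of the mRNAs described here were therefore left by cytosolic ribosomes, and only the mitochondrially encoded mRNAs are read by the mitoribosome itself.

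Promoter sequence is shown for the 4 members that passed the main tests below. Many more members passed in the fits of IP against total RPFs with the clone as a block. The 3 motifs marked here stood in a larger share of member promoters than of promoters of tested genes, but each in a minority of them. The choice of members did not use these letters. In RefSeq promoters of GRCm38.p6 (250 bases before to 50 after the start), 68 of 77 members had an entry. Of 13 motifs searched on both strands, capitals mark 3 that are bound by factors known at genes of mitochondrial proteins. These were the NRF1 motif, CCGGAAG (ETS factors, GABP among them) and AAGATGGCG (YY1). Matches on the reverse strand appear as the reverse complement.
Mrps26, chr2:130563507-130563806, plus strand: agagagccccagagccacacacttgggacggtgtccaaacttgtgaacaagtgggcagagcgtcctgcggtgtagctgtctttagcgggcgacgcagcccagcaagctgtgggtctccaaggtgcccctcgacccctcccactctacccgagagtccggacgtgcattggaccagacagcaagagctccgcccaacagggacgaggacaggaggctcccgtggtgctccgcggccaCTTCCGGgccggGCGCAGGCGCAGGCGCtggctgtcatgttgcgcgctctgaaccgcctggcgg
Mrps27, chr13:99344536-99344835, plus strand: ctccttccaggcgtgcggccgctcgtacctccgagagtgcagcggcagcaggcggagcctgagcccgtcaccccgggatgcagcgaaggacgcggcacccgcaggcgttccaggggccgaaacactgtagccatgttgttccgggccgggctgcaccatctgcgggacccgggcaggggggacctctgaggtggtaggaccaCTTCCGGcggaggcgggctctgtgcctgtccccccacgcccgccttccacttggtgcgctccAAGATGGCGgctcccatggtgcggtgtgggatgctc
Mrps9, chr1:42850983-42851282, plus strand: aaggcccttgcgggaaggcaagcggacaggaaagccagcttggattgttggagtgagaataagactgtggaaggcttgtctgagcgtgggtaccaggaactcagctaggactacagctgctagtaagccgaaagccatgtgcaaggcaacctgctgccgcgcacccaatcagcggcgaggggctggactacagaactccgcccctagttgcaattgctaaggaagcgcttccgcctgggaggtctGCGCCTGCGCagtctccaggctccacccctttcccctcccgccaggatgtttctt
Mrps30, chr13:118387203-118387502, minus strand: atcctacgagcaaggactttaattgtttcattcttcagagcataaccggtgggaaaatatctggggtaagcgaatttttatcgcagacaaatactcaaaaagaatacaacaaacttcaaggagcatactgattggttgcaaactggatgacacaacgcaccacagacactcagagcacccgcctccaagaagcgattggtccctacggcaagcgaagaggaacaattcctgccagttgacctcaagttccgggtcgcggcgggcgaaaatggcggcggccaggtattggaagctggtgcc
The *Mrps26* promoter held overlapping NRF1 matches and an ETS match, that of *Mrps27* an ETS and a YY1 match, that of *Mrps9* an NRF1 match, and that of *Mrps30* none of the 3.

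Across the 68 promoters, the NRF1 motif stood in 13 (19.1%), against 5.19% of all 27025 promoters and 13.1% of the 8027 promoters of tested genes. The ETS letters stood in 25 (36.8%), against 9.93% of all and 22.4% of tested genes. The YY1 letters stood in 8 (11.8%), against 1.64% and 4.14%. Of 55 promoters of cytosolic ribosomal proteins, 24 (43.6%) held the ETS letters, a higher share than in the members, 6 (10.9%) the NRF1 motif and 2 (3.64%) the YY1 letters. The letters GGGCGG (SP1) stood in 34 promoters (50%, against 73.2% of tested genes), CCAAT in 26 (38.2%, against 43.7%) and TATAAA in 5 (7.35%, against 7.69%). The longer CCGGAAGT, which contains the ETS letters, stood in 12 (17.6%, against 10.3%), and a longer YY1 motif in 5 (7.35%, against 2.06%). The letters TGACGT stood in 8 promoters (11.8%, against 14.1% of tested genes), as many as the YY1 letters, and the longer TGACGTCA in 2 (2.94%, against 3.91%). ACTACAA (STAF) stood in 5 (7.35%, against 5.21%), a longer STAF motif in 0 (against 0.847%) and the ZBTB33 motif in 1 (1.47%, against 1.38%). A match is a description of the letters in this window and not of binding.

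In the shortest member 69.7% of the CDS was counted, the lowest share among the members. Footprints had been counted without the first 15 and last 5 codons, which leaves 138 of the 198 nt of *Mrpl33*, the mitochondrial bL33 protein of the large subunit (gene at chr5:31613939-31622644, plus strand, GRCm38). The counted bases are in capitals.
Mrpl33 CDS: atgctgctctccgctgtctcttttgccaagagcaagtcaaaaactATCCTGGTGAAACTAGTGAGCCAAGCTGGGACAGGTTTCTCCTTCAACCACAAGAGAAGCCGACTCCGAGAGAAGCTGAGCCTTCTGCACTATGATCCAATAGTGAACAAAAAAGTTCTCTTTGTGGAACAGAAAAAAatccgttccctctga
Of the 28-nt windows of these counted bases, 70.3% also occur in another listed transcript, *Gm43809*, which had 0 counts in all 15 libraries. *Mrps6* shared 39.2% of its windows, *Mrpl32* 24.5%, *Mrpl40* 6.18% and *Mrps18b* 3.83%, and the partner transcripts held at most 2 counts in all. A read of such a window can be lost where unique alignments are kept, so that the levels of these 5 members are uncertain, above all those of *Mrpl33* and *Mrps6*. The other 72 members shared no window of their counted bases.

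Library totals lay between 3972152 and 8064166 counts (median 6673935), and single members had 43 to 2351 counts in a library (median 388). The 12 mESC markers tested, Pou5f1 and Nanog among them, summed to 4321 to 5317 normalized CPM in every library, against at most 44.9 for 5 markers of primitive endoderm, 30.1 for 4 of trophectoderm and 37.6 for 4 of epiblast and early mesoderm. The lowest of the mESC markers was Dppa3, at 2.73 to 16.2. The 5 fibroblast markers summed to 232 to 353, of which Vim gave 220 to 323. Thy1 gave 5.29 to 24.1 and Col1a1 1.20 to 8.23, while Col1a2 and Dcn stayed under 2 CPM in every library. Counts came from cultures and not from single cells, so that fewer cells and less RNA per cell cannot be told apart. No mRNA abundance was analysed here, so that mRNA level and ribosome load cannot be told apart either.

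The members together took a small share of nuclear-encoded footprints, between 0.524% and 0.605% in single libraries. In WT total RPFs it was 0.533% ± 0.008 (SD, n = 3 clones for this and the following shares). It was 0.558% ± 0.00944 in *Rps27-FLAG* total RPFs and 0.547% ± 0.00766 in *Rps27l-FLAG* total RPFs. In the IP RPFs it was 0.588% ± 0.0144 for *Rps27-FLAG* and 0.557% ± 0.00787 for *Rps27l-FLAG*. The *Rps27-FLAG* IP thus held the highest share.

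Levels between genes were compared as footprint density, that is normalized CPM per kb of counted CDS. The members were spread narrowly. In WT their mean densities ran from 33.2 to 344 with a median of 105, a 10.4-fold range. The low end was *Mrps6*, whose level is uncertain because 39.2% of its windows are shared, so that the range is uncertain too. The quartiles of the members (84.7 and 145) differed 1.72-fold. The 10082 tested transcripts with a CDS length had a median of 25.4 and an upper quartile of 73.7, and their quartiles differed 8.19-fold. The 74 tested proteins of the cytosolic ribosome had a median density of 1498. Subunit and ancestry set the members little apart: medians were 112 for 39S and 102 for 28S members, 107 for those with a bacterial counterpart and 104 for those specific to mitochondria. These are descriptions with no test, since members are not replicates.

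**Figure D1:**
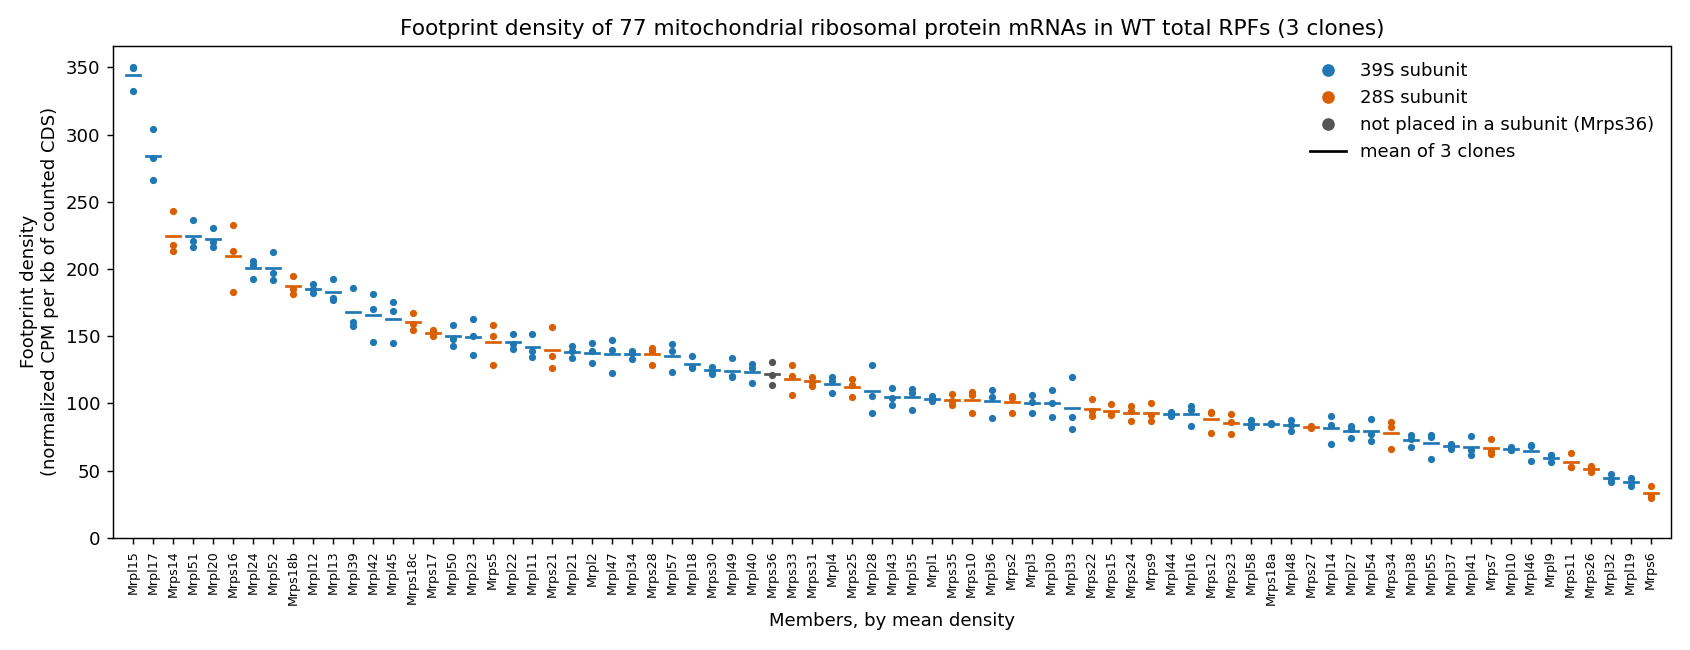
Footprint density (normalized CPM per kb of counted CDS) of each of the 77 members in WT total RPFs, in order of density. Points are the 3 clones and dashes their mean. Most members lie between 84.7 and 145, with Mrpl15 at 344 at the top and Mrps6 at 33.2 at the bottom. The level of Mrps6 is uncertain, since part of its windows are shared with another transcript.

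At the top of the order stood *Mrpl15*, the uL15 protein of the large subunit, with densities of 332.5, 349.9 and 350.0 in the 3 WT clones. It lay apart from *Mrpl17* (bL17), whose clones gave 304.3, 282.4 and 266.1. The next members, *Mrps14*, *Mrpl51* and *Mrpl20*, had means of 225 ± 16.3, 225 ± 10.3 and 223 ± 7.19 (SD, n = 3) and overlapped with each other. The lowest were *Mrps11* (56.1 ± 6.19), *Mrps26* (51.4 ± 1.98), *Mrpl32* (44.1 ± 3.05), *Mrpl19* (41.3 ± 3.26) and *Mrps6* (33.2 ± 4.85). Reads can be lost from the shared windows of *Mrps6* (39.2%) and *Mrpl32* (24.5%), so that the places of these 2 in the order are uncertain. The clones of *Mrps11* and *Mrps26* overlapped, as did those of *Mrpl32* and *Mrpl19* and those of *Mrpl19* and *Mrps6*.

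*Mrpl12* forms the stalk of the large subunit, where it is present in several copies, with *Mrpl10* as its base and *Mrpl11* beside it. *Mrpl12* densities were 188.9, 182.1 and 184.9 in WT, which is 1.77 times the member median. Its ratio to that median was between 1.56 and 1.80 in the other conditions. *Mrpl10* had a mean density of 66.1 and *Mrpl11* of 142. The *Mrps18* genes encode 3 homologues that occupy different places in the mitoribosome, *Mrps18a* in the large subunit. *Mrps18a* (84.3, 84.3 and 85.5) lay below *Mrps18b* (181.2, 195.1 and 185.0) and *Mrps18c* (154.6, 159.3 and 167.4) in every WT clone.

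Members with further roles lay on both sides of the median. *Mrpl58*, a peptidyl-tRNA hydrolase built into the large subunit, had a mean density of 84.8. *Mrpl44*, which has a fold of the RNase III family, had 92.1, and *Mrpl45*, at the exit of the peptide tunnel, had 163. *Mrps12*, of the decoding centre, had 88.2, *Mrps28* had 136, *Mrpl36* had 101, *Mrpl37* had 67.9 and *Mrpl40* had 124. *Mrps36*, the one not in the mitoribosome, had 122. The 5 mitoribosome proteins with other symbols had a median of 177, above that of the members. Dap3 had 243, Chchd1 235, Aurkaip1 177, Gadd45gip1 101 and Ptcd3 94.2. By comparison, the medians were 33.3 for 23 assembly factors and 43.5 for 16 mitochondrial translation factors.

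The order of the members differed little between conditions. Spearman's rho with the WT order over the 77 members was 0.987 in *Rps27-FLAG* and 0.983 in *Rps27l-FLAG* total RPFs, and 0.958 and 0.966 in the IP RPFs of these lines. The points share CDS length and base composition, and the values are a description. Within WT, the median coefficient of variation between clones was 6.26%.

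In total RPFs, no member reached an adjusted p under 0.05 in any comparison of the lines. In *Rps27-FLAG* against WT, edgeR's quasi-likelihood test with Benjamini-Hochberg adjustment over 10085 transcripts called 0 of 77 members and 0% of all transcripts. An unadjusted p under 0.05 was reached by 4 members, against 2.92% of all. The median log2 fold change of the members was 0.06, and 56 of 77 lay above 0, against 49.7% of all transcripts. The 3 tagged clones lay above the 3 WT clones for 9 members (11.7%, against 4.08% of all) and below them for 0 members (4.44% of all). Fold changes ran from -0.19 to 0.28 on the log2 scale. Voom with limma and DESeq2 also called 0 members and 0% of all transcripts in each comparison of the totals.

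In *Rps27l-FLAG* against WT, which used the same WT libraries, the test called 0 of 77 members (0% of all), with 3 members at an unadjusted p under 0.05 (5.69% of all). The median was -0.01, with 37 members above 0. The clones did not overlap for 3 higher and 2 lower members (4.8% and 4.85% of all). In *Rps27l-FLAG* against *Rps27-FLAG*, 0 members were called (0% of all), 5 reached an unadjusted p under 0.05 (5.75% of all), and the median was -0.06 with 24 members above 0. The *Rps27l-FLAG* clones lay above for 0 and below for 7 members (5.73% and 5.77% of all).

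With the replicate number as a block 0 members were called in any of these comparisons. Of all transcripts, 0% were then higher and 0.00992% lower in *Rps27-FLAG* against WT, 0.367% and 1.06% in *Rps27l-FLAG* against WT, and 0.645% and 0.714% between the tagged lines.

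*Mrps18b* had the lowest adjusted p among the members with the replicate number as a block. Its normalized CPM were 127.8, 137.5 and 130.4 in WT. They were 148.7, 163.2 and 161.1 in *Rps27-FLAG*, above every WT clone, and 136.2, 129.0 and 123.9 in *Rps27l-FLAG*. The difference of *Rps27l-FLAG* from *Rps27-FLAG* was -0.28 (log2, SE 0.07), with an adjusted p of 0.803 by edgeR and 0.0523 with the block. It did not pass the test. *Mrpl27*, chosen here after its values were seen, was at 31.2, 32.3 and 28.7 in WT, 34.997, 38.2 and 39.2 in *Rps27-FLAG*, and 38.0, 37.7 and 36.4 in *Rps27l-FLAG*. Both tagged lines lay above WT by 0.28 (log2) without overlap, and edgeR's adjusted p was 0.999 and 0.821.

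In the IP RPFs of *Rps27-FLAG* against their total RPFs, 3 members were called lower and 0 higher without the clone as a block. These were *Mrps30*, *Mrps27* and *Mrps9*, which have 3 of the 5 longest CDSs of the set. The counts were 0 of 77 higher and 3 of 77 (3.90%) lower, where 0.327% and 5.34% of all transcripts were called. Most members nevertheless lay above 0: 55 of 77 did, against 48.3% of all, and the median log2 ratio was 0.15, against -0.01 for all. An unadjusted p under 0.05 was reached by 28 members, 23 of them above 0, against 22.1% of all. The IP clones lay above all total clones for 34 members (44.2%, against 11.3% of all) and below them for 7 (9.09%, against 17%). Voom with limma called the same 3 members (5.09% of all in either direction). DESeq2 called these and *Mrpl50* among the 75 members to which it gave an adjusted p (8.9% of all with one).

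*Mrps30* encodes mL65, a protein of the large subunit that bacteria lack (chr13:118378381-118387252, minus strand, GRCm38, CDS of 1329 nt in 5 exons). Its normalized CPM were 157.6, 154.8 and 161.3 in WT and 164.4, 171.5 and 171.9 in *Rps27-FLAG* total RPFs. The *Rps27-FLAG* IP gave 134.0, 122.9 and 130.1, below every total library of the line. The log2 change was -0.39 (SE 0.06), a 1.31-fold lower level, with an adjusted p of 0.00977 by edgeR. In *Rps27l-FLAG*, total RPFs gave 146.4, 159.6 and 157.0 and the IP 124.6, 134.7 and 122.2, again without overlap, at -0.28 (SE 0.07) and an adjusted p of 0.0828.

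*Mrps27* encodes mS27, a pentatricopeptide repeat protein of the small subunit (chr13:99344786-99415562, plus strand, CDS of 1248 nt in 11 exons). *Rps27-FLAG* total RPFs gave 100.4, 107.9 and 105.9 normalized CPM and the IP 78.0, 77.8 and 86.3. All IP values lay below all totals, and the log2 change was -0.38 (SE 0.07, adjusted p 0.0212 by edgeR). In *Rps27l-FLAG* the totals were 100.0, 101.0 and 96.6 and the IP 86.4, 84.3 and 91.7, which do not overlap either. That change was -0.18 (SE 0.07, adjusted p 0.224).

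*Mrps9* encodes the uS9 protein of the small subunit (chr1:42851233-42905682, plus strand, CDS of 1173 nt in 11 exons). Its values were 107.3, 102.5 and 109.1 in *Rps27-FLAG* total RPFs and 75.2, 77.9 and 92.3 in the IP, with no overlap. The log2 change was -0.38 (SE 0.09, adjusted p 0.0459 by edgeR), and with TMM over all 15 libraries the adjusted p was 0.0564. In *Rps27l-FLAG* the totals were 101.0, 98.6 and 104.3 and the IP 85.3, 89.5 and 79.5, again apart, at -0.26 (SE 0.07, adjusted p 0.116). None of the 3 calls remained without *Rps27-FLAG* replicate 2 or without replicate 3. The adjusted p of the 3 members by edgeR lay between 0.305 and 0.454 without replicate 2. It lay between 0.174 and 0.235 without replicate 3. Over 12 alternative fits, the call of *Mrps9* was lost in 6, and those of *Mrps30* and *Mrps27* in 3 each.

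**Figure D2:**
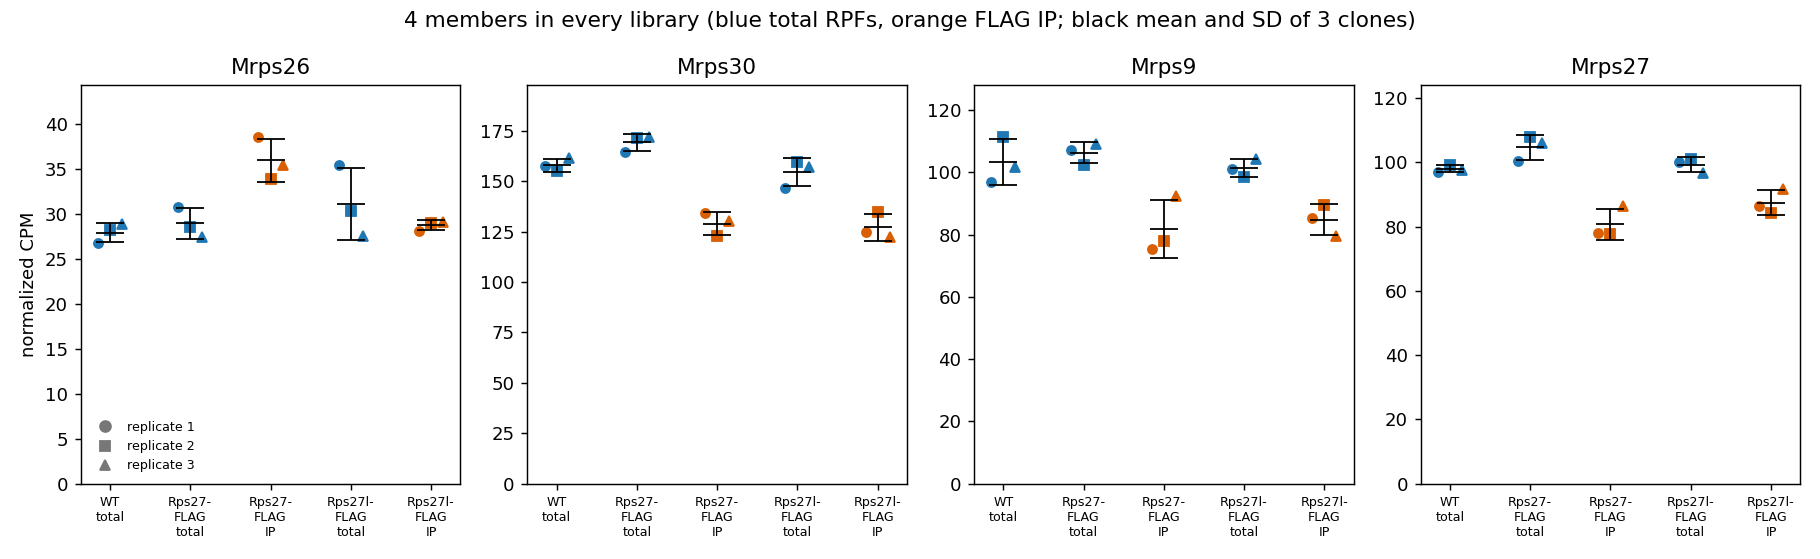
Normalized CPM of Mrps26, Mrps30, Mrps9 and Mrps27 in each of the 15 libraries (blue total RPFs, orange IP RPFs, symbols for the replicate number, black bars for mean and SD of 3 clones). The IP values of Mrps30, Mrps9 and Mrps27 lie below the totals of both lines, and Mrps26 has its highest mean in the Rps27-FLAG IP.

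Each replicate's IP and total RPFs came from 1 clone, and with the clone as a block many more members passed. In *Rps27-FLAG* 37 members rose (48.1%, against 18.3% of all) and 9 fell (11.7%, against 22.9%). Among the rising were 16 of 26 28S and 20 of 50 39S members. The highest were *Mrpl33*, *Mrps23* and *Mrps36*, and the lowest the same *Mrps9*, *Mrps30* and *Mrps27*. The ratios of the single clones (log2, 0.5 counts added) were 0.37, 0.48 and 0.32 for *Mrpl33*, 0.21, 0.30 and 0.57 for *Mrps23*, and 0.19, 0.40 and 0.43 for *Mrps36*. All were above 0. The medians of the members in the 3 clones were 0.11, 0.12 and 0.15.

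In the IP RPFs of *Rps27l-FLAG*, no member passed the threshold without the block. The test called 0 of 77 in each direction (0.833% and 2.27% of all), and 13 members reached an unadjusted p under 0.05, 8 of them above 0, against 17.4% of all. Voom with limma called 0 (3.03% of all), as did DESeq2 among the 70 members with an adjusted p (8.23% of all with one). The median was 0.08, against -0.03 for all. With the clone as a block 17 members rose (22.1%, against 12% of all) and 6 fell (7.79%, against 19%). *Mrps30* (-0.27), *Mrps9* (-0.25) and *Mrps27* (-0.19) were the lowest and *Mrps6* (0.52), *Mrpl34* (0.32) and *Mrps14* (0.27) the highest. The IP clones lay above all total clones for 18 members (23.4%, against 9.11% of all) and below for 5 (6.49%, against 14.2%). The clone medians were 0.05, 0.07 and 0.08.

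The sign of the ratio was the same in every clone for some members and not for others. The log2 ratio of IP to total RPFs lay above 0 in all 6 clones for 34 of 77 members (44.2%, against 16.4% of all transcripts) and below 0 in all 6 for 11 (14.3%, against 22.6%). The other 32 (41.6%) did not have 1 sign in all clones. *Mrps14*, the uS14 protein of the small subunit, had ratios of 0.31, 0.29 and 0.22 in *Rps27-FLAG* and 0.28, 0.35 and 0.15 in *Rps27l-FLAG*. *Mrpl12* had 0.18, 0.34 and 0.13, and 0.08, 0.14 and 0.26. Both were among the members above 0 throughout. *Mrps6*, the bS6 protein with 43 to 91 counts a library, was less even: 0.24, -0.57 and 0.38 in *Rps27-FLAG*, and 0.58, 0.46 and 0.52 in *Rps27l-FLAG*.

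CDS length moved with these ratios. The members are short, with a median CDS of 591 nt (198 to 1329), against 1443 nt for all tested transcripts, and longer members had lower ratios. Spearman's rho between CDS length and log2 ratio over the 77 members was -0.58 in *Rps27-FLAG* and -0.54 in *Rps27l-FLAG*, and over 10082 tested transcripts with a length it was -0.56 and -0.53. In *Rps27-FLAG* the median was 0.20 for the 26 members under 500 nt, 0.15 for the 31 from 500 to under 800 nt and -0.08 for the 20 of 800 nt and over. All tested transcripts in these bands had medians of 0.21, 0.14 and -0.07. In *Rps27l-FLAG* the members gave 0.13, 0.09 and -0.06, against 0.16, 0.09 and -0.07.

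With a smooth trend on CDS length removed, the median of the members was 0.01 in *Rps27-FLAG* and -0.02 in *Rps27l-FLAG*, and 0 members passed without the block (0.0892% of all were then higher and 0.188% lower in *Rps27-FLAG*, and 0.0595% and 0.0297% in *Rps27l-FLAG*). The adjusted p was then 0.0691 for *Mrps30*, 0.109 for *Mrps27* and 0.146 for *Mrps9*. With trend and block together, 7 members rose and 16 fell in *Rps27-FLAG* (18.1% and 13% of all), and in *Rps27l-FLAG* 3 rose and 6 fell (14.3% and 7.85% of all). *Mrps30*, *Mrps27* and *Mrps9* were lower in both lines under that fit, and *Mrpl15*, *Mrpl44* and *Mrps31* higher in both.

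*Mrps31*, chosen here after its values were seen, stood against the length trend. It encodes a mitochondria-specific small-subunit protein with a CDS of 1155 nt, near those of *Mrps9* and *Mrps27*. Its clones gave ratios of 0.26, 0.24 and 0.19 in *Rps27-FLAG* and 0.05, 0.20 and 0.16 in *Rps27l-FLAG*, all above 0. The fit with the block gave 0.23 (SE 0.04, adjusted p 3.88e-08 by edgeR) and 0.13 (SE 0.04, adjusted p 0.0107).

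**Figure D3:**
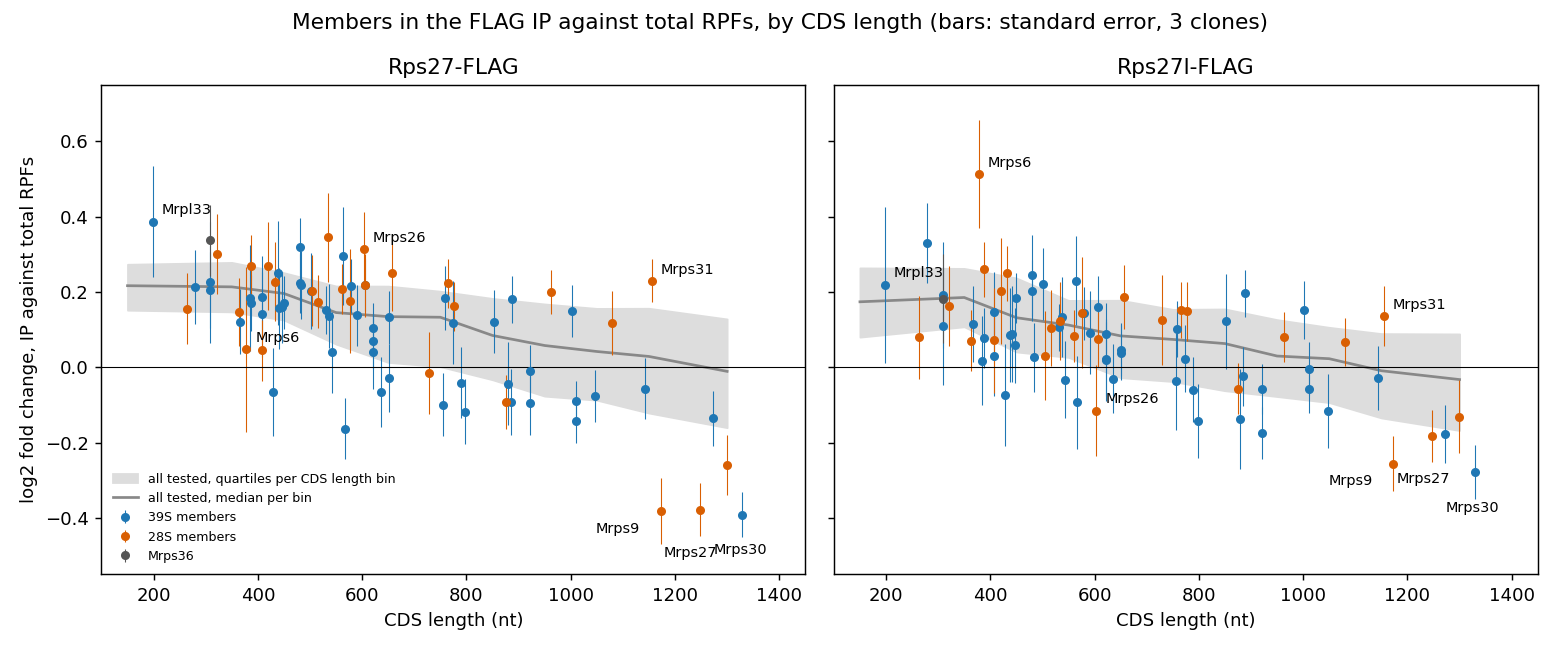
Fitted log2 fold change of IP against total RPFs for each of the 77 members by CDS length in nt (blue 39S, orange 28S, grey Mrps36, bars for the standard error), beside the median and quartiles of all tested transcripts in bins of CDS length. The medians of all transcripts fall with CDS length, and in both lines Mrps9, Mrps27 and Mrps30 lie below the grey line and Mrps31 above it.

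Between the IP effects of *Rps27l-FLAG* and *Rps27-FLAG*, 1 member differed, *Mrps26*. The test, with each clone as a block, an adjusted p under 0.05 and an absolute log2 fold change over 0.25, found 0 members with a higher effect in *Rps27l-FLAG* (0.466% of all) and 1 with a lower effect (0.0992% of all). An unadjusted p under 0.05 was reached by 8 members, against 12.1% of all. The median of the members was -0.04, with 23 of 77 above 0, against 49.0% of all. The clones did not overlap for 5 higher and 9 lower members (9.08% and 7.13% of all).

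*Mrps26* encodes mS26, a small-subunit protein that bacteria lack (chr2:130563742-130568695, plus strand, GRCm38, CDS of 603 nt in 4 exons). Its normalized CPM were 26.7, 28.2 and 28.8 in WT, and it had 114 to 272 counts a library. In *Rps27-FLAG*, total RPFs gave 30.8, 28.6 and 27.5 and the IP 38.6, 33.9 and 35.4, all above the totals. In *Rps27l-FLAG*, total RPFs gave 35.4, 30.3 and 27.5 and the IP 28.1, 29.0 and 29.1, inside the range of the totals.

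The log2 ratios of IP to total for *Mrps26* were 0.32, 0.25 and 0.37 in the *Rps27-FLAG* clones and -0.33, -0.06 and 0.09 in the *Rps27l-FLAG* clones, which did not overlap. The difference was -0.44 (SE 0.12, adjusted p 0.0331 by edgeR). The spread was wider in *Rps27l-FLAG*, where replicate 1 had the highest total and the lowest IP value. Without that replicate the difference was -0.31 with an adjusted p of 0.390. It was also past the threshold no longer without *Rps27-FLAG* replicate 1 (0.122) or 3 (0.118) or *Rps27l-FLAG* replicate 2 (0.0504), and the adjusted p was 0.0597 with the length trend removed and 0.99995 without the clone as a block. Voom with limma also called *Mrps26* alone (0.526% of all). DESeq2 gave an adjusted p to 1 of 77 members, not *Mrps26*, and did not call it (1.01% of all with one were called).

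The other members did not differ past the threshold. *Mrps27* differed by 0.19 (adjusted p 0.178 by edgeR) and *Mrps30* by 0.11 (adjusted p 0.433). *Mrps6* had the largest difference upward, 0.47 (SE 0.21, adjusted p 0.304), and rested on its few counts.

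The other genes of mitochondrial translation gave the following counts. Of 16 tested translation factors, 0 rose and 4 fell in the *Rps27-FLAG* IP without the block, with a list median of -0.18, where 5.34% of all transcripts fell. These were Lrpprc (-0.50, an mRNA-binding factor), Gfm2 (-0.46, ribosome recycling), Gfm1 (-0.42, elongation) and Oxa1l (-0.29, the membrane insertase). In *Rps27l-FLAG*, Gfm1 (-0.40, adjusted p 0.0124 by edgeR) and Lrpprc (-0.36, adjusted p 0.0273) fell, where 2.27% of all transcripts fell. Of 23 assembly factors 0 passed in either line, with medians of -0.14 and -0.09. Of the 5 mitoribosome proteins with other symbols 0 passed, and Ptcd3 (-0.33 and -0.29, adjusted p 0.0650 and 0.0727) was the lowest. The median CDS was 1232 nt for the translation factors, 1134 nt for the assembly factors and 669 nt for the 5 other mitoribosome proteins, and the translation factors that fell span 1302 to 4179 nt. Of 74 tested cytosolic ribosomal proteins, with a median CDS of 456 nt, 0 were called in *Rps27-FLAG* (median 0.21). Of all transcripts, 0.327% were called higher and 5.34% lower there. In *Rps27l-FLAG* 39 were higher (median 0.31), where 0.833% of all transcripts were.

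The 13 mRNAs that the mitoribosome itself translates fell in the IP RPFs of both lines. They held 0.622% ± 0.0355 of all counts in WT, 0.679% ± 0.0389 in *Rps27-FLAG* and 0.554% ± 0.0869 in *Rps27l-FLAG* total RPFs (SD, n = 3). In the IP RPFs they held 0.0410% ± 0.00624 and 0.0604% ± 0.0207. In a fit of 10098 transcripts that kept them, all 13 fell in both IPs, by 12.7- to 34.8-fold in *Rps27-FLAG* (adjusted p between 1.57e-07 and 0.000122 by edgeR) and by 6.88- to 16.5-fold in *Rps27l-FLAG* (adjusted p between 1.13e-06 and 0.00328). In that fit 5.5% and 2.42% of all transcripts fell. IP and total libraries did not overlap for any of the 13. The mRNA *mt-Co1*, for a subunit of cytochrome c oxidase, was at 1740, 1824 and 1572 normalized CPM in *Rps27-FLAG* totals and at 135, 158 and 112 in the IP. In *Rps27l-FLAG* it was at 1327, 1555 and 1095 in totals and at 140, 301 and 137 in the IP. For this mRNA replicate 2 was the highest IP library of both lines. The reading frames of *mt-Atp8* and *mt-Atp6*, and of *mt-Nd4l* and *mt-Nd4*, overlap, so that reads there cannot be told apart.

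**Figure D4:**
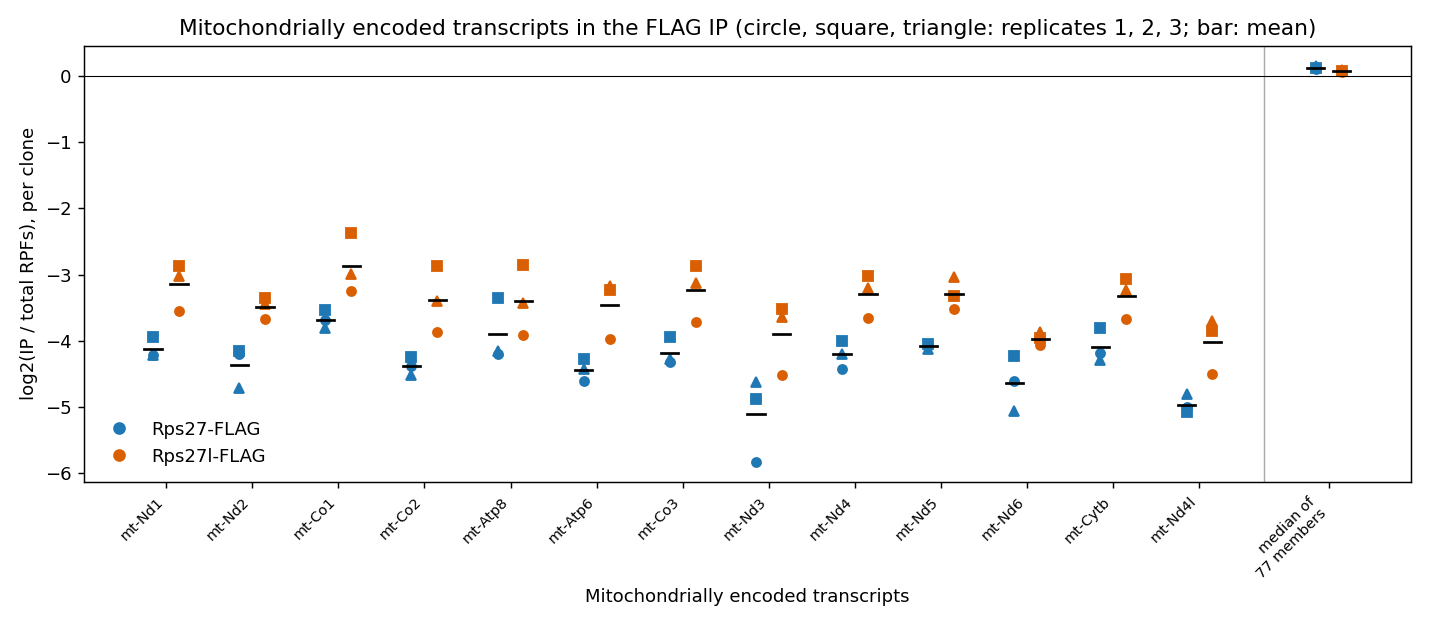
Log2 ratio of IP to total RPFs (0.5 counts added) of the 13 mitochondrially encoded mRNAs in each of the 6 tagged clones, beside the median of the 77 members in the same clone. The mitochondrially encoded mRNAs lie far below 0 in every clone, and the member medians lie between 0.05 and 0.15.

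In total RPFs, 0 of the 13 were called in any comparison without the block (0 to 9 at an unadjusted p under 0.05). With the replicate number as a block 3 of 13 were lower in *Rps27l-FLAG* than in *Rps27-FLAG*, where 0.743% of all were lower. These were *mt-Atp8* (-0.53, adjusted p 0.0235 by edgeR), *mt-Cytb* (-0.44, adjusted p 0.0244) and *mt-Nd5* (-0.33, adjusted p 0.0486). *Rps27l-FLAG* replicate 3 had the lowest share of mitochondrially encoded counts among the totals, 0.462%, against 0.563% and 0.636% in replicates 1 and 2 of that line. The *Rps27l-FLAG* clones lay below all *Rps27-FLAG* clones for 8 of 13, against 5.77% of the 10085 transcripts of the main fits. The IP effect of the mitochondrially encoded mRNAs was higher in *Rps27l-FLAG* than in *Rps27-FLAG* for 11 of 13, by 0.76 to 1.23 (log2). Of all transcripts, 0.574% were higher. The mRNAs *mt-Atp8* (0.50, adjusted p 0.288 by edgeR) and *mt-Nd6* (0.62, adjusted p 0.0764 by edgeR) did not pass. The members, by contrast, had a median difference of -0.04. Both IPs were depleted of the 13 mRNAs, so that their difference compares small remainders. For *mt-Nd3* the IP counts were 12, 19 and 18 in *Rps27-FLAG* and 23, 40 and 24 in *Rps27l-FLAG*. The study reports a higher RNA concentration of IP RPFs from *Rps27-FLAG* than from *Rps27l-FLAG* cells. Whether that yield bears on these mRNAs was not tested.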

How the data were processed

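RPFs of 15 libraries (5 conditions, 3 clones each) were analysed. The authors trimmed reads with cutadapt 2.4, removed duplicates by molecular identifiers with UMI-tools 1.0.1, discarded reads of structural RNAs, used Bowtie2 2.3.4.3 to align the remainder to transcripts of GRCm38 and kept unique alignments. The deposited values are the authors' raw counts of A sites per CDS, without the first 15 and last 5 codons. Positions came from GENCODE M21, another release than the authors'. Groups and replicate numbers came from the labels.

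Mitochondrially encoded transcripts were left out of the main fits, as in the authors' methods, and TMM factors were computed for IP and total libraries separately. Tests on counts used edgeR 4.0.16 (quasi-likelihood F-test) in R 4.3.3, with Benjamini-Hochberg adjustment over 10085 transcripts and a threshold of 0.05. Total RPFs were fitted by line, IP against total RPFs by fraction, and the difference of IP effects with clones as blocks and a limit of 0.25 on the log2 fold change, without Tmod3 as in the authors' methods. Alternatives were voom with limma 3.58.1, DESeq2 1.42.0, its size factors, TMM over all libraries, other filters, the replicate block, a loess trend on CDS length (span 0.5) and each clone left out. Figures were drawn with matplotlib 3.10.9.

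The block was checked on values centred on their condition: within each of the 6 clones the deviations of IP and total RPFs correlated with r between 0.468 and 0.790, where the pairing comes from the clone names in the labels. Totals of one replicate number, which were pooled for library preparation, gave r between -0.164 and 0.713. Named genes were the members past the threshold, the 3 highest and lowest with the block, the 5 highest and lowest WT densities, members with a set role, and related genes past the threshold. Members and lists were chosen with earlier results of these data known.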

Additional observations from a re-analysis of the deposited data

Results flagged for a closer look

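The IP effect, that is the log2 ratio of IP to total RPFs, differed between the *Rps27-FLAG* and *Rps27l-FLAG* lines by the interaction test of edgeR for 1 member and for 11 of 13 mitochondrially encoded mRNAs. For *Mrps26* the difference of *Rps27l-FLAG* from *Rps27-FLAG* was -0.44 (adjusted p 0.0331 by edgeR). That call was lost in 4 of 6 fits with a clone left out (adjusted p up to 0.390) and without the clone as a block (0.99995). For the mitochondrially encoded mRNAs it was above 0. It was 0.97 for *mt-Nd1*, 0.80 for *mt-Nd2*, 0.92 for *mt-Nd4* and 0.93 for *mt-Nd4l*. It was 1.23 for *mt-Nd3* and 0.76 for *mt-Nd5*, all subunits of complex I. Among the subunits of cytochrome c oxidase it was 0.84 for *mt-Co1*, 1.05 for *mt-Co2* and 0.95 for *mt-Co3*. It was 0.98 for *mt-Atp6* of ATP synthase and 0.76 for *mt-Cytb* of complex III. With each clone left out, 9 to 12 of the 13 passed. The largest value, that of *mt-Nd3*, rested on IP counts of 12, 19 and 18 in *Rps27-FLAG* and 23, 40 and 24 in *Rps27l-FLAG*.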

How the results depend on the processing

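Precision was limited by 3 clones a group and, for *Mrps6*, by 43 to 91 counts a library. In total RPFs the count of called members was 0 under all alternatives. The median of *Rps27l-FLAG* against WT was -0.020 without a filter, -0.0252 with the CDS length trend removed and -0.0247 with trend and replicate block, and -0.010 to 0.0072 with a clone left out. In the *Rps27-FLAG* IP the count of 3 was 0 with the trend removed, 46 with the clone as a block (the pairing of IP and total libraries), 23 with both, and 0 to 11 with a clone left out (11 without replicate 1, 0 without replicate 2 or 3). The median was 0.18 by DESeq2, 0.0076 with the trend removed and 0.0078 with trend and block. In the *Rps27l-FLAG* IP the count of 0 was 23 with the block and 9 with block and trend, and the median was 0.11 by DESeq2, 0.10 with TMM over all libraries, -0.016 with the trend removed and -0.014 with trend and block. For the IP effect the count of 1, *Mrps26*, was 0 by DESeq2 (which gave 1 member, not *Mrps26*, an adjusted p), with the trend removed and with no replicate block, and 0 to 1 with a clone left out. The median of the IP effects was -0.011 with the trend removed. *Mrps26* in the *Rps27l-FLAG* IP was at -0.12 and turned to 0.0046 without *Rps27l-FLAG* replicate 1 (-0.20 to 0.0046 with a clone left out). The cause was not tested. Replicate number as a block changed no call of members in the totals.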
